A study of Homo sapiens with 40 samples.

Results

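The proximal gene desert of 8q24 is the stretch of chromosome 8 from 126.6 to 127.5 Mb (hg19), between the protein-coding genes TRIB1 and LRATD2. Its members were all peaks of the 6 replicated peak lists whose start lies in that stretch. There were 416 such peaks among 5748 in all: 14 in control, 89 after DAXX knockdown, 50 after HIRA knockdown, 87 after HJURP knockdown, 49 after HIRA+DAXX knockdown and 127 after HIRA+HJURP knockdown.

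The lists come from native ChIP-seq of SW480, a human colon cancer cell line, with an anti-centromere (ACA) serum, used in the study as CENP-A ChIP. Cells were transfected with siRNA against DAXX, HIRA or HJURP, or against HIRA together with DAXX or HJURP, for 72 hours. The control is given as untreated in the sample labels and as control siRNA in the study's text. Control and each single knockdown had 4 ChIP and 4 input libraries, and each double knockdown had 2 of each. Every condition is deposited as 1 merged list that holds positions and no score, so there was no spread between replicates to set a difference against, and none between conditions was tested. The lists do not hold the read depth. The study's methods state that depth differed between replicates and that reads were single- or paired-end. Its supplement lists the depths, which were not used here, so no peak number or width below is adjusted for depth.

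CENP-A is the histone H3 variant that marks centromeres, where its chaperone HJURP deposits it; ACA sera also bind other centromere proteins. HIRA and DAXX are chaperones of another variant, H3.3, which replaces H3 outside S phase. The 8q24 gene desert is rich in long noncoding RNA genes and enhancers and lies proximal to the MYC oncogene, whose region SW480 cells carry in extra copies.

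The segment held more peaks in each knockdown list than in the control list. The number was 6.36 times control after DAXX knockdown, 6.21 times after HJURP knockdown and 3.57 times after HIRA knockdown. It was 3.5 times control after HIRA+DAXX knockdown and 9.07 times after HIRA+HJURP knockdown. The order of the lists depended on narrow peaks. Among peaks at least 500 bp wide the ratios were 7.8 for DAXX, 7.5 for HJURP, 4.6 for HIRA+HJURP, 4 for HIRA and 1.4 for HIRA+DAXX knockdown, so that HIRA+HJURP no longer came first. With peaks within 10000 bp joined, the ratios fell to 2.33 after DAXX, 2 after HJURP, 1.89 after HIRA, 2.11 after HIRA+DAXX and 2.22 after HIRA+HJURP knockdown. It also changed when bases under peaks were summed in place of peaks. Peaks covered 15.1 kb in control, 125.7 kb after DAXX knockdown, 108 kb after HJURP knockdown and 58.3 kb after HIRA knockdown. Coverage was 22.5 kb after HIRA+DAXX knockdown and 74.9 kb after HIRA+HJURP knockdown. Relative to control these sums were 8.33 for DAXX, 7.17 for HJURP, 4.96 for HIRA+HJURP, 3.86 for HIRA and 1.49 for HIRA+DAXX knockdown. The HIRA+HJURP list thus had the most peaks of the 6 but less coverage than the DAXX and HJURP lists, and the excess of HIRA+DAXX over control in coverage did not hold among peaks at least 500 bp wide, where its ratio was 0.902.

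**Figure D1:**
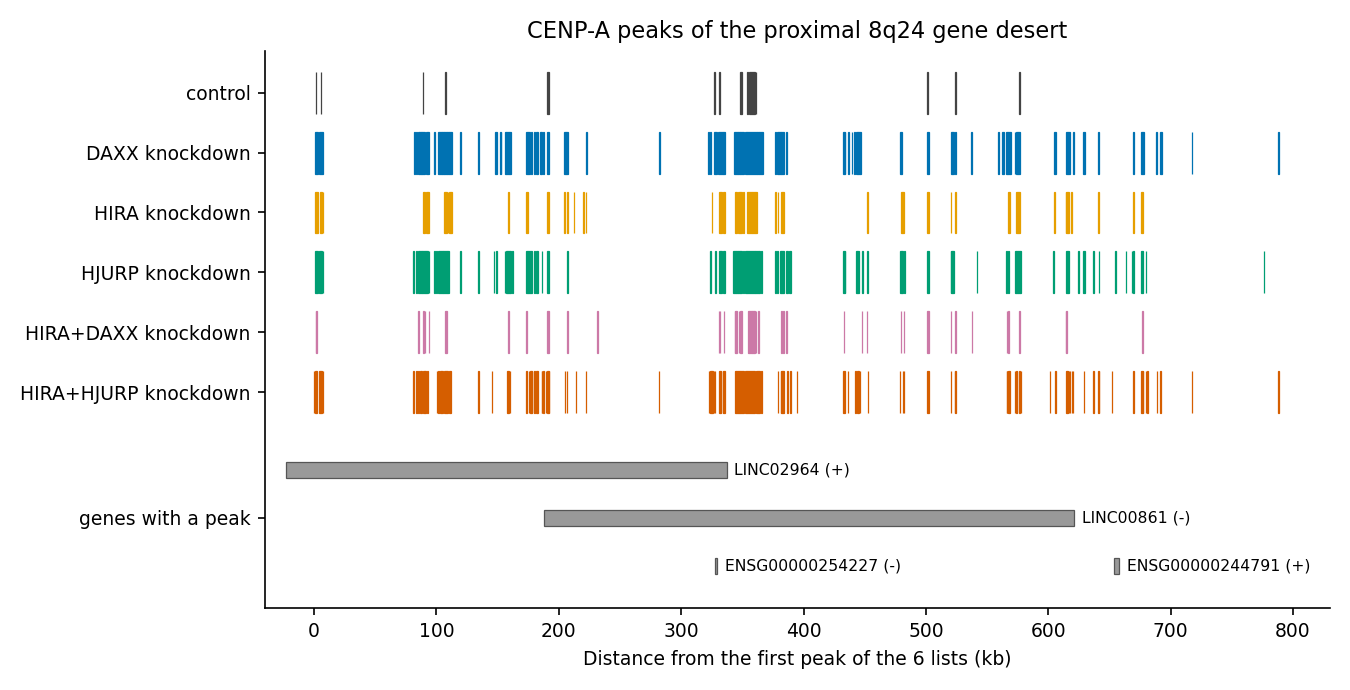
Peaks of the segment in each condition, by distance in kb from the first peak of the 6 lists, with the 4 annotated genes that hold a peak drawn below and their strand in brackets. Each bar is 1 peak, with very narrow peaks drawn at the width of a line; the 14 control peaks fall at places where other lists also hold peaks.

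The share of a list that fell in the segment also differed. It was 3.43% in control (95% Wilson interval 2.05 to 5.68), 9.35% after DAXX knockdown (7.66 to 11.4), 9.26% after HJURP knockdown (7.56 to 11.3) and 5.90% after HIRA knockdown (4.50 to 7.69). The double knockdowns had 4.81% (3.66 to 6.31) for HIRA+DAXX and 8.03% (6.79 to 9.47) for HIRA+HJURP. These intervals cover counting error only and take peaks as independent, which neighbouring peaks of a run may not be, so they are no test between conditions. The order of the shares depended on the denominator: over the peaks of distal chromosome 8 alone, from 600 kb before the segment to the end of the chromosome, they were 17.3% in control, 22.9% after DAXX, 23.4% after HJURP, 32.1% after HIRA, 22.3% after HIRA+DAXX and 26.7% after HIRA+HJURP knockdown, with HIRA knockdown first.

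Peak width separated the single from the double knockdowns. The median was 768 bp in control, 1157 bp after DAXX, 1025 bp after HIRA and 957 bp after HJURP knockdown. It was 346 bp after HIRA+DAXX and 372 bp after HIRA+HJURP knockdown. Peaks over 1 kb made up 62.9% of the DAXX list, 50% of the HIRA list, 46.0% of the HJURP list and 35.7% of the control list in the segment, against 4.08% for HIRA+DAXX and 15.7% for HIRA+HJURP. The lists of the double knockdowns rest on fewer libraries, and they were narrower outside the segment too, with medians of 270 and 261 bp against 790 bp in control. The single knockdowns had 837 bp for DAXX, 694 bp for HIRA and 757 bp for HJURP there, so HIRA and HJURP lay below control outside the segment. The whole lists of the double knockdowns were also the longest, with 1018 and 1582 peaks against 848 to 952 in the single knockdowns. In these lists the number of libraries and the condition therefore cannot be told apart in the number, width and coverage of the double knockdowns' peaks. The study states that a second method, with random read samples of equal depth, gave similar results for genome-wide ectopic CENP-A. Peaks from that method are not among the lists used here.

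**Figure D2:**
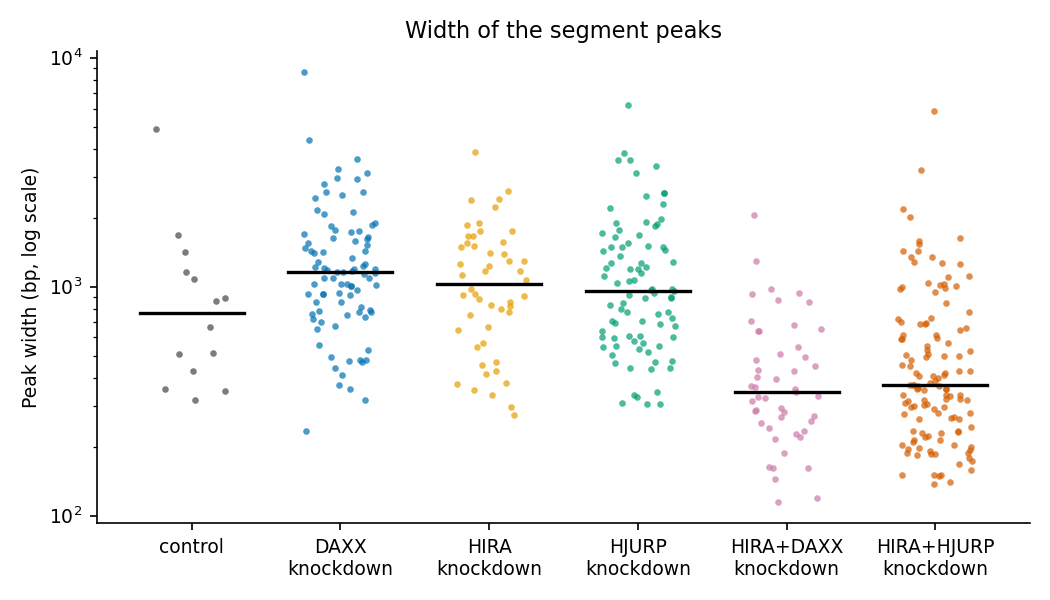
Width of each segment peak in bp, on a log scale, by condition. Points are single peaks, spread sideways for display, and black lines are medians, which lie between 768 and 1157 bp in control and the single knockdowns and at 346 and 372 bp in the double knockdowns.

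All 6 lists began close together. The first peak started between 126684292 and 126685244 in 5 lists and at 126683802 in the HIRA+HJURP list, a range of 1442 bp, so that the first 83.8 kb inside the proximal border held no peak. In control the first peak was chr8:126685154-126685582, 429 bp wide. It was 2584 bp wide after DAXX, 2421 bp after HIRA and 2575 bp after HJURP knockdown, and 329 bp after HIRA+DAXX knockdown. The first peak after HIRA+HJURP knockdown, 140 bp wide, lay apart from those of the other lists. At the site of the control edge peak, peaks covered 429 bp in control, 723 bp after HIRA+DAXX knockdown, in 2 peaks, and 1347 bp after HIRA+HJURP knockdown, also in 2, so that both had more bases there than control. The nearest peak before it lay 79.8 Mb away in control, in the single knockdowns and after HIRA+DAXX knockdown, and 39.9 Mb away after HIRA+HJURP knockdown. The first peaks lie in an intron of LINC02964, 23.2 kb or more beyond its start, and 233 to 235 kb beyond TRIB1, a pseudokinase gene and the nearest protein-coding gene on that side.

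The distal end was not shared in this way. The last peak ended at 127260496 in control, at 127361374 after HIRA and at 127361336 after HIRA+DAXX knockdown. It ended at 127460278 after HJURP, at 127472114 after DAXX and at 127471982 after HIRA+HJURP knockdown, a range of 212 kb over the 6 lists. The span of the peaks was 575 kb in control, 677 kb and 676 kb in HIRA and HIRA+DAXX knockdown, and 776 to 788 kb in the others. The empty stretch that followed was 738 kb long in control, 457 kb after HIRA, 379 kb after HIRA+DAXX, 269 kb after HIRA+HJURP, 242 kb after HJURP and 183 kb after DAXX knockdown. LRATD2, the nearest protein-coding gene on the distal side, lay 304 kb from the last control peak and 92.6 kb from the last peak of the DAXX list, and MYC lay 1487 and 1276 kb from them.

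Between these ends the peaks were not evenly spread. Over their own span the lists held 2.43 peaks per 100 kb in control, 11.3 after DAXX, 11.2 after HJURP and 7.38 after HIRA knockdown, and 7.25 after HIRA+DAXX and 16.1 after HIRA+HJURP knockdown. The median gap between neighbouring peaks was 17713 bp in control, 1170 bp after DAXX, 1044 bp after HJURP and 2485 bp after HIRA knockdown. It was 3279 bp after HIRA+DAXX and 982.5 bp after HIRA+HJURP knockdown. Part of the peaks came in tight runs: gaps under 1 kb numbered 41 after DAXX, 43 after HJURP, 15 after HIRA, 16 after HIRA+DAXX and 63 after HIRA+HJURP knockdown and 2 in control, where each list has 1 gap fewer than peaks. When peaks within 10000 bp were joined, the lists came closer together in number, with 9 sites in control, 21 after DAXX, 17 after HIRA, 18 after HJURP, 19 after HIRA+DAXX and 20 after HIRA+HJURP knockdown.

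Joining the peaks of all lists across gaps of up to 30 kb gave 6 blocks. The first, at the proximal edge, was 7.59 kb long and was followed by 73.3 kb with no peak in any list. The second spanned 151 kb, and a block of 0.468 kb stood alone between it and the fourth. The fourth, chr8:127005858-127078600, was 72.7 kb long and the most densely covered of the 3 longest blocks in every list. It held 61.6% of the segment's peak bases in control, 31.6% after DAXX, 35.8% after HIRA, 32.7% after HJURP, 45.2% after HIRA+DAXX and 36.5% after HIRA+HJURP knockdown. Peaks covered 12.8% of this block in control, 54.7% after DAXX, 48.6% after HJURP, 37.6% after HIRA+HJURP, 28.7% after HIRA and 14% after HIRA+DAXX knockdown.

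**Figure D3:**
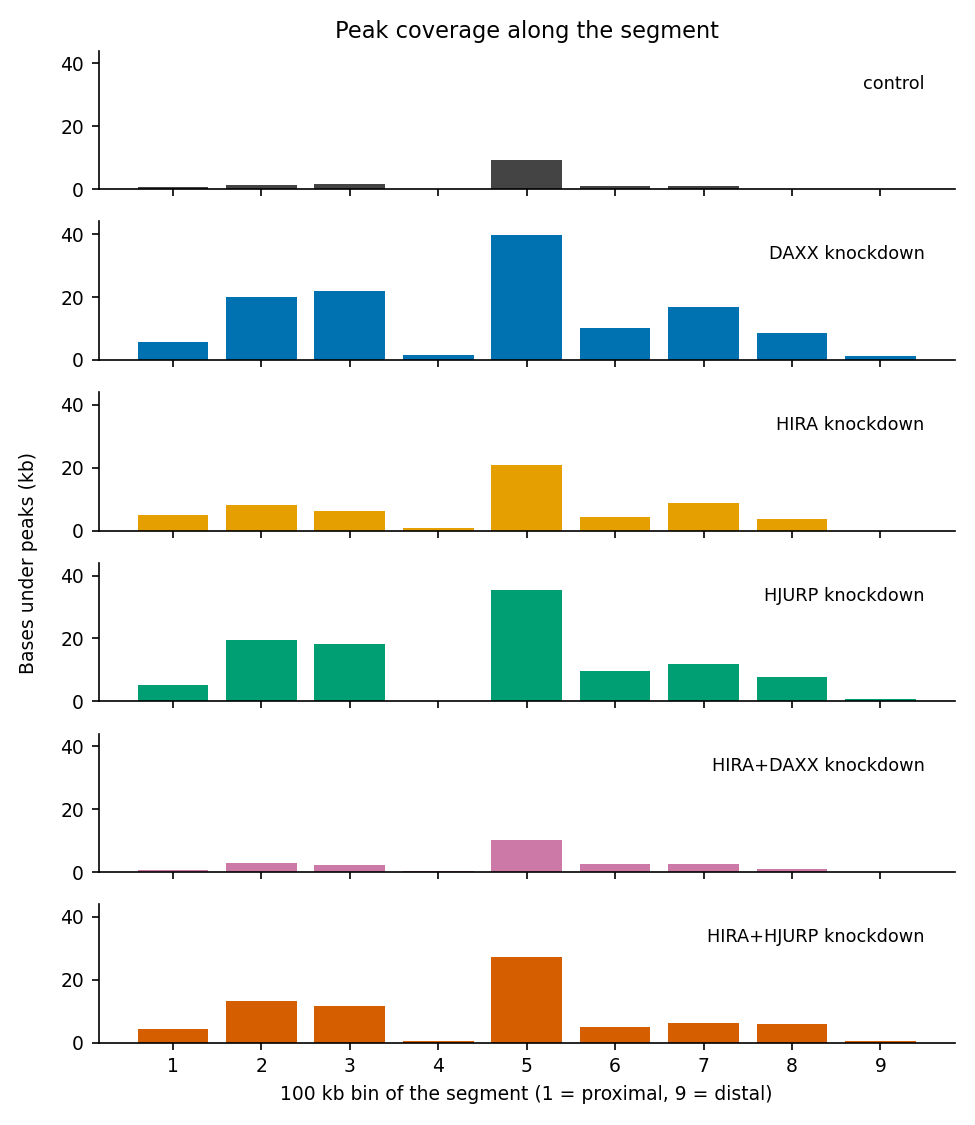
Bases under peaks, in kb, in each 100 kb bin of the segment from the proximal (1) to the distal (9) border, 1 panel per condition with a common axis. The fifth bin is the highest in every list, from 9.29 kb in control to 39.8 kb after DAXX knockdown, and the fourth holds at most 1.66 kb.

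The widest peak of every list overlapped the others in this block. It was chr8:127039003-127043869 in control, 4867 bp wide, and held 32.3% of the peak bases of the control list in the segment. After DAXX knockdown it was chr8:127037332-127045974, 8643 bp wide, which takes in 3 separate control peaks. Its width was 6211 bp after HJURP, 5876 bp after HIRA+HJURP, 3865 bp after HIRA and 2049 bp after HIRA+DAXX knockdown, where a second peak of 1295 bp followed it. The longest run of bases covered in all 6 lists was the whole 2049 bp of that HIRA+DAXX peak.

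Overlapping peaks of the 6 lists joined into 113 sites. Of these, 34 had a peak in 1 list, 26 in 2, 18 in 3, 13 in 4, 13 in 5 and 9 in all 6. Control had a peak at 12 sites and at none alone. The number was 76 after DAXX, 72 after HJURP, 40 after HIRA, 31 after HIRA+DAXX and 80 after HIRA+HJURP knockdown. Sites held by a single list came from HIRA+HJURP (12), HJURP (11), DAXX (8), HIRA (2) and HIRA+DAXX (1). By bases, 6.04% of the 154 kb under any peak was covered in all 6 lists and 29.0% in a single list. The same counts were not made over all deposited peaks, so they do not show whether such sharing is particular to the segment.

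The 9 sites held in all 6 lists fell into those that were wide only in some lists and those of like width in all. At chr8:126874325-126876097, peaks covered 1673 bp in control, 1744 bp after DAXX, 1742 bp after HIRA, 1723 bp after HJURP, 1352 bp after HIRA+DAXX and 1587 bp after HIRA+HJURP knockdown. At chr8:127184695-127186036 they covered 1078 bp in control, 1260, 1234 and 1223 bp after DAXX, HIRA and HJURP knockdown, and 1071 and 1262 bp after HIRA+DAXX and HIRA+HJURP knockdown. The most and the least covered list differed 1.29 and 1.18 times at these places, and the first peak starts lay within 83 and 84 bp of each other. The site of the widest peaks, chr8:127036034-127047160, had 5852 bp in control and between 5672 and 10863 bp in the knockdowns, a ratio of 1.92.

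At the other 6 sites that ratio was 5.42 to 8.36. The largest was at chr8:126785120-126792714, with 890 bp in control, 6941 bp after DAXX, 2381 bp after HIRA, 7437 bp after HJURP, 1376 bp after HIRA+DAXX and 4699 bp after HIRA+HJURP knockdown. The site chr8:127013592-127019731 had 870 bp in control and 738 bp after HIRA+DAXX knockdown, and 5977, 3059, 4479 and 3524 bp after DAXX, HIRA, HJURP and HIRA+HJURP knockdown. At chr8:127031969-127035380 the HIRA+DAXX list had the least, 613 bp against 1413 bp in control, and the others 2589 to 3321 bp. At the edge site chr8:126684292-126686937, and at chr8:126772177-126774465 and chr8:127257554-127260651, control had the least, with 429, 356 and 513 bp, and a single knockdown the most, with 2584, 2289 and 2955 bp.

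**Figure D4:**
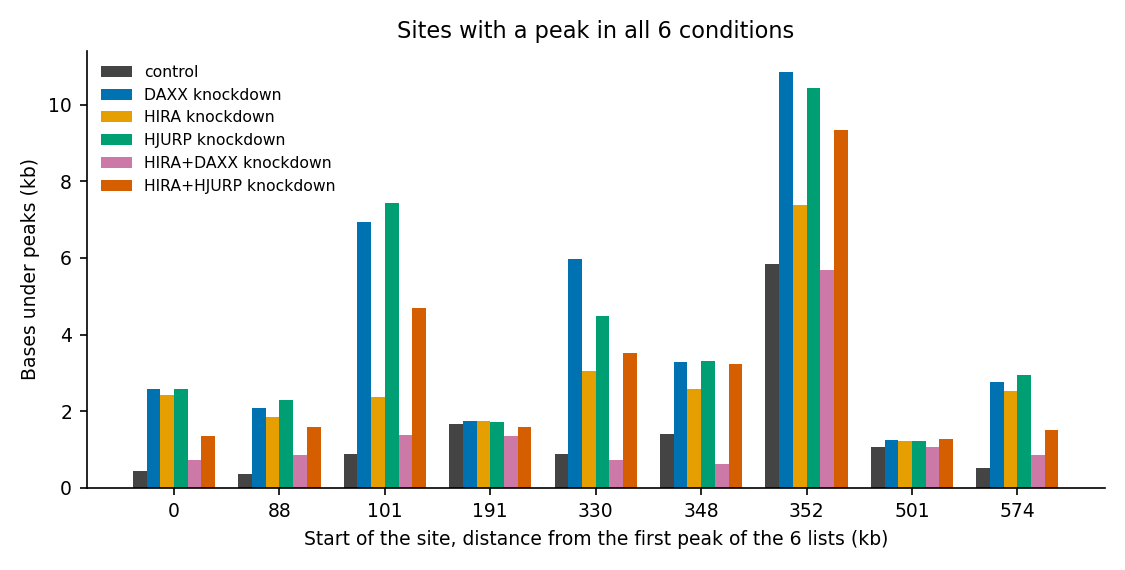
Bases under peaks, in kb, at the 9 sites with a peak in all 6 conditions, ordered by their distance in kb from the first peak of the 6 lists. The sites at 191 and 501 kb have bars of like height in every condition, and the site at 352 kb has the highest bars.

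In each knockdown list, more peaks of the segment lacked than had a base in a control peak. Of the 89 peaks after DAXX knockdown 77 had none, or 86.5% (77.9 to 92.1), against 68.6% over all deposited peaks of that list. The share was 74% (60.4 to 84.1) after HIRA knockdown, against 56.4% over the whole list, and 86.2% (77.4 to 91.9) after HJURP knockdown, against 66.2%. For HIRA+DAXX knockdown it was 65.3% (51.3 to 77.1) against 49.9%, and for HIRA+HJURP knockdown 87.4% (80.5 to 92.1) against 64.6%. Each share was above that of its whole list, which includes the segment, and this difference was not tested. It is not a separate result from the number ratios, since a list with many more peaks than control has few control peaks to meet. Those ratios were also higher in the segment than over all other peaks, for example 6.36 against 2.19 after DAXX knockdown. For HIRA+DAXX knockdown the share was 42.9% among peaks at least 500 bp wide. With control peaks extended by 5000 bp on each side, the shares fell to 59.6% after DAXX, 58.6% after HJURP, 52.8% after HIRA+HJURP, 44% after HIRA and 36.7% after HIRA+DAXX knockdown, so that in the last 2 lists most peaks lay near a control peak. Whole-list shares were not taken with the width filter or the extended control peaks, so the values at these settings describe the segment only. The control list is small here, with 14 peaks, and all 5 shares are read against that same list.

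Most control peaks were met again in each knockdown list. All 14 were touched by a peak after DAXX and after HIRA+HJURP knockdown, 13 after HIRA, 13 after HJURP and 10 after HIRA+DAXX knockdown. Over all 408 control peaks the shares met were 86.0% for DAXX, 83.8% for HIRA+HJURP, 84.3% for HIRA, 81.6% for HJURP and 74.8% for HIRA+DAXX knockdown, and the 71.4% of HIRA+DAXX in the segment was the only one below its share over all peaks. Of the segment's bases under control peaks, 99.4% were also under a peak after DAXX, 90.7% after HIRA, 92.1% after HJURP, 92.1% after HIRA+HJURP and 64.2% after HIRA+DAXX knockdown. The matching shares over all control bases were not taken. Knockdown peaks that touched a control peak were wider than those that did not, with medians of 2376 and 1086 bp after DAXX, 1751 and 856 bp after HIRA, 2246 and 848 bp after HJURP, 491 and 306.5 bp after HIRA+DAXX and 962.5 and 358 bp after HIRA+HJURP knockdown. Wider peaks also have more bases with which to touch another peak, and the part of width in this difference was not tested.

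Most segment peaks of each smaller knockdown list touched a peak of each larger one. By bases the lists lay less evenly within each other. Of the HIRA bases, 90.8% lay under DAXX peaks. Under HIRA+HJURP peaks lay 51.9% of the DAXX bases and 56.0% of the HJURP bases. Base shares over all deposited peaks were not taken. In the segment, 86% of the 50 HIRA peaks touched a DAXX peak, and 41.6% of the 89 DAXX peaks touched a HIRA peak. Over all deposited peaks these shares were 74.9% and 55%. DAXX and HJURP, lists of near equal size, met in 73.0% of the DAXX peaks and 77.0% of the HJURP peaks, close to the 72.6% and 80.6% over all deposited peaks. Among the 49 peaks of the HIRA+DAXX list, 91.8% met the DAXX list and 79.6% the HIRA list, against 81.7% and 74.0% over all peaks. In turn, 32.6% of DAXX peaks and 56% of HIRA peaks met it, against 48.1% and 57.4%. Of the HIRA+HJURP list, 70.1% met the HJURP list and 45.7% the HIRA list, against 65.9% and 54.3% over all peaks. It was met by 72.4% of HJURP peaks and 86% of HIRA peaks, against 71.5% and 68.3%. A double knockdown did not meet its own single knockdowns alone: 91.8% of the HIRA+DAXX peaks met the HJURP list, the same share as met the DAXX list, and 81.9% of the HIRA+HJURP peaks met the DAXX list, more than met the HJURP list. Over all peaks these shares were 72.4% and 75.8%. Several of these values lie near those of the whole lists, and no difference from them was tested.

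No protein-coding gene is annotated in the segment. GENCODE release 44 on this build has 12 genes there, 6 of them lncRNA genes, and 4 of the lncRNA genes held a peak in some list. LINC02964, on the plus strand at chr8:126660571-127021174, held 7 peaks in control, 43 after DAXX, 22 after HIRA, 37 after HJURP, 17 after HIRA+DAXX and 60 after HIRA+HJURP knockdown. LINC00861, on the minus strand at chr8:126871965-127305033, held 10, 48, 34, 45, 38 and 73 peaks in the same order. The bodies of these genes overlap, and peaks in the overlap count for both.

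Nearly all of these peaks were intronic. Exons take up 1.94% of the bases of the segment, which is a share of bases and not a matched background for the share of peaks that touch an exon. Exons were touched by 1 peak in control, 4 after DAXX, 2 after HIRA, 1 after HJURP, 0 after HIRA+DAXX and 4 after HIRA+HJURP knockdown, or 0 to 7.14% of the peaks of a list. The 26 transcripts annotated for the 12 genes of the segment have 22 distinct start sites, none of them under a peak in any list. Most peaks of LINC00861 lay only in its longest transcript: its 11 shorter ones, which span chr8:126871965-126984355, held 1 peak in control, 5 after DAXX, 6 after HIRA, 2 after HJURP, 4 after HIRA+DAXX and 8 after HIRA+HJURP knockdown. The unnamed lncRNA gene ENSG00000254227 held 1 peak each in control and after DAXX, HJURP and HIRA+HJURP knockdown, over its last exon, and ENSG00000244791 held 1 peak after HJURP knockdown alone.

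The share of peaks with a base in a gene body was 100% in control, 91.0% after DAXX, 94% after HIRA, 88.5% after HJURP, 98.0% after HIRA+DAXX and 89.0% after HIRA+HJURP knockdown. Gene bodies take up 73.6% of the bases of the segment, and 79.3% of those in the stretch that the peaks of all lists span. Neither is the background of a single list. The bodies of LINC02964 and LINC00861 together fill chr8:126660571-127305033 without a gap. The control peaks end at 127260496, within that stretch, so their share of 100% follows from their span and shows no preference for genes. Peaks outside genes numbered 8 after DAXX, 3 after HIRA, 10 after HJURP, 1 after HIRA+DAXX and 14 after HIRA+HJURP knockdown. All of them lay distal to that stretch.

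Bases under peaks were poorer in G and C than the rest of the segment. The GC share was 35.7% under a peak of any list, 33.0% under peaks of all 6 lists and 40.6% under none, with 40.2% for the chromosome as a whole. The median peak had 35.2% in control, 36.4% after DAXX, 34.4% after HIRA, 36.8% after HJURP, 34.8% after HIRA+DAXX and 36.2% after HIRA+HJURP knockdown. The 1000 bp on both sides of a peak had medians of 35.8 to 38.4%, so the flanks were low in GC as well. Peaks above their own flanks in GC made up 18 to 45.7% of the 6 lists.

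The rise over control was not of one size along 8q24. From 127.5 to 128.2 Mb, the side of PCAT1, the number of peaks was 3.93 times control after DAXX, 1.6 times after HIRA and 3.27 times after HJURP knockdown, below the ratios of the gene desert. From 128.2 to 128.6 Mb, the interval of CASC8 and POU5F1B, the ratios were 8.56, 2.33 and 8, with only 9 control peaks as the base. The deposited peaks outside these intervals and the gene desert had 1.88, 2.05 and 1.92 times control. That outside set still holds the 8q24 peaks distal to 128.6 Mb, so it is not the genome without 8q24. The ratios of HIRA+DAXX and HIRA+HJURP knockdown were 2.8 and 4.83 on the side of PCAT1, 4.22 and 8.89 in the interval of CASC8 and POU5F1B, and 2.39 and 3.46 outside. By coverage the double knockdowns lay below control outside these intervals, at 0.607 times for HIRA+DAXX and 0.960 times for HIRA+HJURP, and above it in the gene desert (1.49 and 4.96), on the side of PCAT1 (1.56 and 4.43) and in the interval of CASC8 and POU5F1B (1.69 and 7.89). Coverage per length was lower in the gene desert than in either neighbouring interval in all 6 lists, for example at 14% of the 900 kb after DAXX knockdown against 25.1% and 24.6% in the neighbouring intervals. The 900 kb include 83.8 kb at the proximal border with no peak in any list. After HIRA knockdown the values were close, 6.48% against 7.11% in the interval of CASC8 and POU5F1B, so that order may depend on the border. These differences between intervals were not tested.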

How the data were processed

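Per the labels and the study's methods, the authors used Trimmomatic for trimming and Bowtie2 2.2.6 for alignment to hg19, filtered on mapping quality, ran MACS on every ChIP library with its input as background, and kept merged peaks that overlapped peaks of a minimum number of replicates. That minimum is above the 2 ChIP libraries of a double knockdown, so how those lists were made is not given in the sources used here, which also differ on the number of replicates behind a list. The deposited lists hold 4 columns that give chromosome, start, end and a name, without score or signal.

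Peaks were chosen by start, with the first base counted as 1 in coordinates. Members and lists were chosen with earlier results of these data known. Overlap meant at least 1 base. Overlap functions were tested on simulated intervals and checked against bedtools 2.31.1. Genes came from GENCODE release 44 lifted to GRCh37, and all 5748 peaks ended within its chromosomes. Named were genes with a peak, the flanking protein-coding genes and MYC, the first, last and widest peaks, and sites held in all 6 lists. Python 3.11.15, numpy 2.4.6, scipy 1.17.1 and matplotlib 3.10.9 were used.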

Additional observations from a re-analysis of the deposited data

How the results depend on the processing

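No paired analysis was possible because each condition is 1 merged list. Leaving out replicates and raising the score threshold were not run, since the lists keep neither replicates nor scores. Of 93 values under other settings, 66 stayed within 1.5 times the reported ratio, on the same side of control, or within the 95% interval of the reported share. Some of the 66 could not change. A segment 100 kb longer at its distal end took in no further peak in any list. All genes with a peak were lncRNA genes, so leaving out other classes changed no share. The cause of the other changes was not tested.

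Among peaks at least 500 bp wide, the coverage ratio of HIRA+DAXX knockdown fell below control, to 0.902. Its ratio of peak number became 1.4, and that of HIRA+HJURP 4.6, while DAXX and HJURP rose to 7.8 and 7.5. With peaks within 1000 bp joined, the number ratio was 4 after DAXX, 3.67 after HJURP and 5.33 after HIRA+HJURP knockdown. Joining within 10000 bp gave 2.33 after DAXX, 1.89 after HIRA, 2 after HJURP, 2.11 after HIRA+DAXX and 2.22 after HIRA+HJURP knockdown. Counting joined sites of the 6 lists in place of peaks, chosen after seeing the data, gave ratios of 2.58 to 6.67.

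The share of peaks apart from control was 95.5% for DAXX, 86% for HIRA and 95.4% for HJURP when control had to cover 50% of a peak. With control peaks extended by 5000 bp it was 59.6% after DAXX, 44% after HIRA, 58.6% after HJURP, 36.7% after HIRA+DAXX and 52.8% after HIRA+HJURP knockdown. Among peaks at least 500 bp wide it was 42.9% for HIRA+DAXX and 71.7% for HIRA+HJURP. Shares over all deposited peaks were not taken at these settings.

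Over the peaks of distal chromosome 8 alone, the segment held 17.3% in control, 22.9% after DAXX, 32.1% after HIRA, 23.4% after HJURP, 22.3% after HIRA+DAXX and 26.7% after HIRA+HJURP knockdown, so that HIRA knockdown came first. Gene shares changed little with the gene borders used, and the choice of gene classes could not change them.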
